A study of Caenorhabditis elegans with 8 samples.

Results

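The numbered col genes are the largest family of cuticle collagen genes in Caenorhabditis elegans, and their transcripts were followed here in whole nematodes after feeding RNAi against 2 transcription factors. A gene counted as a member when its WormBase symbol was col with a number and it had at least 10 read counts in 3 or more of the 8 libraries. Of 156 such symbols in a table of 46748 genes, 86 met the minimum and 70 did not. All animals were of the N2 strain, the laboratory wild type. There were 2 libraries from animals fed L4440, the feeding plasmid without an insert, 3 from animals fed an hlh-2 RNAi plasmid and 3 from animals fed a lin-32 RNAi plasmid. All 3 groups therefore ate plasmid-bearing bacteria, and no other allele or agent is named. The sources used here name neither the age or stage of the animals nor separate cultures for the replicates. A p-value therefore sets a difference between groups only against the scatter of these libraries, and that scatter may be technical.

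The cuticle is the collagen-rich outer coat of the worm. The epidermis secretes its collagens, short proteins built around Gly-X-Y repeats that fold as trimers and are cross-linked outside the cell, and a new cuticle is made at each moult. Individual collagen genes have their own time of expression: COL-19 is a classical adult collagen, while col-17 is a larval collagen gene, and both respond to the heterochronic pathway that ends in the zinc finger protein LIN-29. LIN-32, an Atonal relative, is a proneural factor of the basic helix-loop-helix type, and HLH-2, an E protein, is its dimer partner.

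Library totals ran from 22380739 counts in L4440 replicate 1 to 34814808 in replicate 2 of the libraries labelled lin-32 RNAi. Levels below are in CPM, the count divided by the scaled library size and brought to a common total, and 1 CPM stood for 22.1 counts in the smallest library. The targeted transcripts were read as a check of the labels. The hlh-2 transcript stood at 50.6 and 49 CPM in L4440 and at 49, 48.9 and 53.9 CPM under the hlh-2 RNAi label, so these libraries did not show a lower hlh-2 level (log2 fold change 0.025 ± 0.15 SE, edgeR adjusted p = 0.990). It stood at 23, 27.8 and 15.6 CPM in the libraries labelled lin-32 RNAi (-1.16 ± 0.15 SE, edgeR adjusted p = 0.0041, or 0.0678 without L4440 replicate 2). The lin-32 transcript had 33 and 39 counts in L4440, 28, 24 and 23 counts in the libraries labelled lin-32 RNAi (-0.86 ± 0.29 SE, edgeR adjusted p = 0.233) and 73, 114 and 67 counts under the hlh-2 label. Groups are therefore called by their labels throughout. The RNA came from whole animals, so fewer cells of a type and less RNA per cell cannot be told apart.

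The members were alike in gene structure. By the WBcel235 annotation they had a median of 2 exons, 73 of 86 had 1 to 3 exons, and the protein had a median of 304 residues, with 82 of 86 between 250 and 400. The other 4 were longer: col-41 with 428 residues, col-76 with 499, col-135 with 660 and col-99 with 735. The last of these, which also has the most exons (18), encodes a transmembrane collagen rather than a cuticle component. Members lay on all 6 chromosomes, with 24 on IV, 20 on V, 15 on X, 13 on II, 9 on III and 5 on I. Because the library kit did not mark strand, reads in exons shared with another gene cannot be assigned with certainty. Exons of 25 members overlapped those of another gene, and in 4 of these (col-64, col-116, col-147 and col-158) over 10% of the exon bases were shared.

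Of the 86 members, 71 had at least 10 counts in all 8 libraries, 2 had them in 3 libraries only, and 0 reached the minimum through libraries of 1 group alone. The members col-17, col-90 and col-77 had fewer than 10 counts in every library labelled lin-32 RNAi. They met the minimum only through the other groups, so a comparison with that label is not independent of how they were chosen. The members with the fewest counts over all libraries were col-147, col-174 and col-186, with 61, 65 and 71. The genes left out with the most counts were col-79, col-187 and col-83, with 62, 55 and 53. Of the 70 genes left out, 3 had no count in any library and 3 were still tested (col-7, col-83 and col-187), and none of these passed the test in any comparison. Several of the genes left out had been listed for a known role or stage. The dauer collagen gene col-2 had at most 3 counts in a library and col-36 at most 4. Counts were at most 1 for col-40 and col-49, 6 for col-63 and 7 for col-120, and col-37 had none. The adult collagen gene col-7 had 2 and 4 counts in L4440, 3, 2 and 14 in the libraries labelled hlh-2 RNAi and 8, 8 and 11 under the lin-32 label. The libraries labelled lin-32 RNAi lay above L4440, but the difference did not pass the test (1.22 ± 0.79 SE, edgeR adjusted p = 0.569). The symbol col-1 was not among the genes analysed here.

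Levels spread over more than 3 orders of magnitude. Per kilobase of exon, col-181 and col-106 stood at the top, with means of 601 and 594 CPM per kb over the 8 libraries and ranges of 539 to 698 and 548 to 695 that overlapped almost fully. They were followed by col-95 at 508, col-140 at 487, col-119 at 444, col-122 at 402, col-178 at 395, col-184 at 329, col-143 at 307 and col-101 at 265 CPM per kb. Neighbours in this order were not separated beyond their spread: col-95 alone ran from 343 to 635 CPM per kb. At the other end stood col-64, col-174 and col-186, at 0.216, 0.208 and 0.203 CPM per kb. By mean CPM, 29 members reached at least 5 CPM, 28 lay between 1 and 5 CPM, and 29 lay under 1 CPM. These level classes describe the data and were set with the values known. The 10 highest members held 76.6% to 78.7% of all member counts in a library, and the 57 members under 5 CPM held 1.21% to 1.98% of the summed member CPM.

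**Figure D1:**
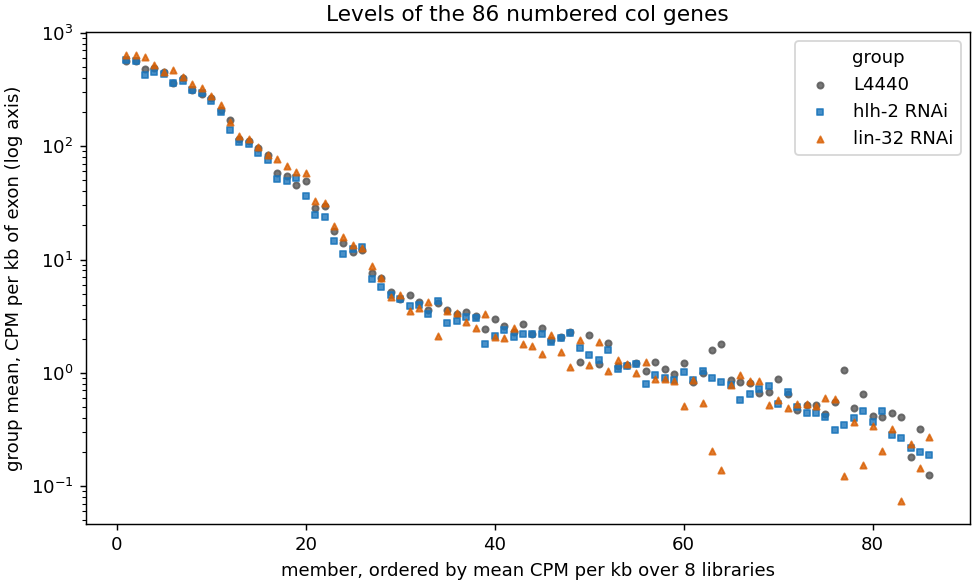
Group mean level of each of the 86 members in CPM per kb of exon (log axis), with members ordered from left to right by their mean over the 8 libraries; 1 symbol per group. The order falls from 601 CPM per kb for col-181 to 0.203 for col-186, and the groups lie close together except among the lowest members.

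Together the members took 0.571% and 0.502% of the counts in L4440, 0.534%, 0.535% and 0.495% in the libraries labelled hlh-2 RNAi, and 0.595%, 0.583% and 0.626% in the libraries labelled lin-32 RNAi. The means were 0.537% ± 0.0482 (SD, n = 2), 0.521% ± 0.0228 (SD, n = 3) and 0.601% ± 0.0224 (SD, n = 3). The share was higher in each library labelled lin-32 RNAi than in the other 5 libraries, and the first 2 groups overlapped. The members under 5 CPM made up a smaller part of the collagen transcripts under the lin-32 label. Their share of summed member CPM was 1.98% and 1.73% in L4440, 1.72%, 1.76% and 1.65% in the libraries labelled hlh-2 RNAi, and 1.46%, 1.48% and 1.21% under the lin-32 label, where all 3 values lay below the other 5. That share also falls when the abundant members rise. The summed level of the lower members itself overlapped between groups, at 115 and 87.4 CPM in L4440, 90.4, 93.3 and 81.6 CPM under the hlh-2 label and 87.8, 85 and 76.4 CPM under the lin-32 label.

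Collagen transcripts had a larger spread between replicates than the median of tested genes of similar level. For members of at least 5 CPM the median SD of log2 CPM was 0.159 in L4440, 0.143 in the libraries labelled hlh-2 RNAi and 0.0918 under the lin-32 label. Over all 8573 tested genes of at least 5 CPM it was 0.0430, 0.0511 and 0.0571. The variation was shared among members. L4440 replicate 1 stood above L4440 replicate 2 for 27 of the 29 members of at least 5 CPM, with a median log2 difference of 0.21, and for 42 of the 57 lower members, with a median of 0.37. Replicate 3 of the libraries labelled hlh-2 RNAi was the lowest of all 8 libraries for 19 of the 29. Replicate 3 of those labelled lin-32 RNAi was the highest for 14 of the 29 and the lowest for 19 of the 57 lower members. Because members moved together between libraries, they are not independent of each other, and a count of members in one direction can follow 1 library.

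**Figure D2:**
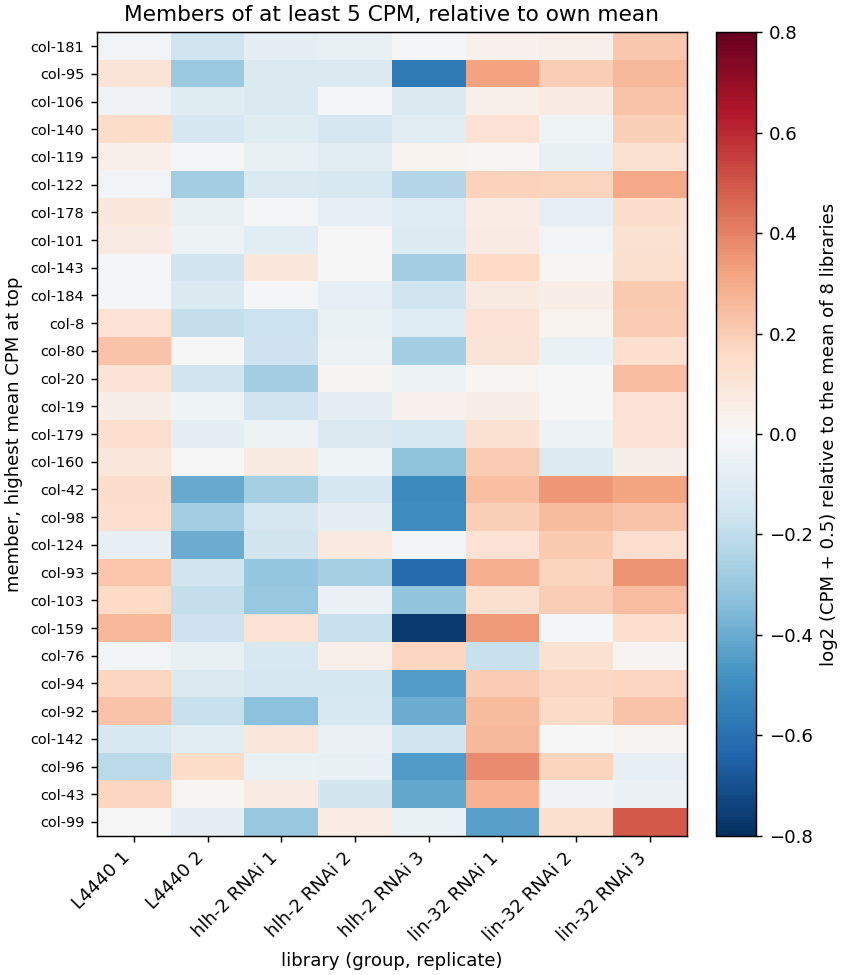
The 29 members of at least 5 CPM (rows, highest at the top) in each of the 8 libraries (columns), coloured by log2 of CPM + 0.5 relative to the mean of the 8 libraries. The column of hlh-2 RNAi replicate 3 is mostly blue, being lowest for 19 members, and L4440 replicate 1 is redder than L4440 replicate 2 for 27 of the 29 members.

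The spread differed widely from member to member. The 5 members of at least 5 CPM with the widest spread within a group were col-99, col-159, col-42, col-92 and col-98. The transcript of col-99 measured 4.25, 6.53 and 8.53 CPM in the libraries labelled lin-32 RNAi, an SD of 0.50 on the log2 scale. The transcript of col-159, whose exons overlap those of its neighbour col-160 by 21 bases, measured 32.9, 26.9 and 17.7 CPM under the hlh-2 label, an SD of 0.46. In L4440 the SD was 0.39 for col-42, 0.30 for col-92 and 0.29 for col-98. At the steady end, col-119 had an SD of 0.036, 0.062 and 0.090 and col-19 of 0.059, 0.100 and 0.057 in the 3 groups.

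Members with an assigned stage were read next. The adult collagen gene col-19 measured 106 and 100 CPM in L4440, 91.7, 97.4 and 105 CPM under the hlh-2 label and 107, 103 and 111 CPM under the lin-32 label. All 3 groups overlapped, and col-19 passed the test in none of the 3 comparisons. Its log2 fold change against L4440 was -0.07 ± 0.055 (SE) for the hlh-2 label and 0.05 ± 0.055 (SE) for the lin-32 label. The larval collagen gene col-17 (WBGene00000606, chromosome II, 4866436 to 4867576, minus strand, 2 exons, 277 residues) was far lower in level than col-19. It had 42 and 55 counts in L4440, 23, 27 and 38 in the libraries labelled hlh-2 RNAi and 7, 5 and 2 under the lin-32 label. The 3 groups did not overlap, in the order L4440, hlh-2 label, lin-32 label.

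In CPM, col-17 stood at 1.95 ± 0.065 (SD, n = 2) in L4440, 0.91 ± 0.22 (SD, n = 3) under the hlh-2 label and 0.15 ± 0.089 (SD, n = 3) under the lin-32 label. Its fall in the libraries labelled lin-32 RNAi passed the test (log2 fold change -3.68 ± 0.36 SE, edgeR adjusted p = 6.3e-04). The value under the hlh-2 label did not pass (-1.10 ± 0.26 SE, edgeR adjusted p = 0.269). Both comparisons use the same 2 control libraries. Set against each other, the libraries labelled hlh-2 RNAi had more col-17 than those labelled lin-32 RNAi (2.58 ± 0.37 SE, edgeR adjusted p = 0.0097), though without replicate 2 of the lin-32 label that call was lost (edgeR adjusted p = 0.0698). The 6 genes of the larval-to-adult switch that were listed beside the collagens, among them lin-29 and lin-41, had 0 calls in each comparison, with medians of 0.052 for the hlh-2 label and 0.068 for the lin-32 label against L4440. These are RNA levels of whole animals, so the list cannot show whether the switch changed in the epidermis.

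The other members listed for a known role did not pass the test in any comparison. The adjacent genes col-12 and col-13 on chromosome V encode near-identical proteins of 316 residues, so reads may have been divided between them and their separate values are uncertain. Their levels ran from 2.12 to 5.20 CPM and from 2.27 to 5.37 CPM over the 8 libraries, lowest for each in replicate 3 of the hlh-2 label. The levels of col-38 ran from 3.25 to 4.22 CPM, and col-62 had 3 to 18 counts. The transcript of col-10 had 44 and 43 counts in L4440 and 29, 42 and 25 in the libraries labelled lin-32 RNAi (-0.79 ± 0.28 SE, edgeR adjusted p = 0.258). That of col-34 had 32 and 24 counts in L4440 and 50, 61 and 60 under the lin-32 label, without overlap, and did not pass (0.67 ± 0.24 SE, edgeR adjusted p = 0.278).

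Next, L4440 was compared with the libraries labelled lin-32 RNAi, with the limit that the lin-32 transcript itself did not pass the test there while hlh-2 was lower. Of the 86 members, 3 passed the test, a share of 3.49%, where 106 of 14272 genes tested passed, a share of 0.743%. One member rose, col-122, where 30 genes rose in all (0.21%). A further 2 fell, col-17 and col-90, where 76 genes fell in all (0.533%). At an unadjusted p under 0.05 there were 23 members, 11 higher and 12 lower (over all genes 5.77% and 6.82%), or 26.7% against 12.6% of all genes tested. Of the 86 log2 fold changes 47 were above 0, or 54.7% against 50.6% of all genes tested, and their median was 0.031 against 0.0015.

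The 2 members that fell had low counts in every group and fewest under the lin-32 label. Both met the minimum for members only through libraries of the other groups. The gene col-90 (WBGene00000665, chromosome III, 7948838 to 7950068, plus strand) shares 8.7% of its exon bases with let-754 on the opposite strand. It had 25 and 35 counts in L4440, 9, 15 and 14 under the hlh-2 label and 7, 5 and 1 under the lin-32 label. As for col-17, the 3 groups did not overlap. The fall in the libraries labelled lin-32 RNAi was -3.09 ± 0.43 on the log2 scale (SE, edgeR adjusted p = 0.0054) and lost its call without L4440 replicate 2 (edgeR adjusted p = 0.106). The value under the hlh-2 label was -1.61 ± 0.35 (SE, edgeR adjusted p = 0.168).

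A further pair of low members had the same order without passing the test. The gene col-73 (WBGene00000649, chromosome II, 4872098 to 4873129, minus strand) had 50 and 24 counts in L4440, 22, 31 and 33 under the hlh-2 label and 14, 3 and 1 under the lin-32 label. All 3 libraries labelled lin-32 RNAi lay below the other 5, and the L4440 libraries were far apart from each other (-2.96 ± 0.61 SE, edgeR adjusted p = 0.051). The gene col-41 (chromosome X, 15175032 to 15176481, minus strand), whose protein has 428 residues, had 24 and 19 counts in L4440, 16, 18 and 28 under the hlh-2 label and 10, 2 and 7 under the lin-32 label (-2.08 ± 0.50 SE, edgeR adjusted p = 0.084). Counts of this size carry a wide counting error. The same direction with a smaller size was seen for col-74 (-0.97 ± 0.29 SE, edgeR adjusted p = 0.169) and col-144 (-0.76 ± 0.22 SE, edgeR adjusted p = 0.155), both chosen after their values were seen.

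Among the abundant members the values lay on the other side. The gene col-122 (WBGene00000696, chromosome IV, 9563379 to 9564441, plus strand, 300 residues) measured 379 and 317 CPM in L4440 and 437, 435 and 475 CPM in the libraries labelled lin-32 RNAi, a 1.29-fold rise without overlap. Its log2 fold change was 0.37 ± 0.067 (SE, edgeR adjusted p = 0.0266). That call was lost without L4440 replicate 2 (edgeR adjusted p = 0.254), without replicate 2 of the hlh-2 label (0.0563) and without replicate 2 or 3 of the lin-32 label (0.0572 and 0.0789). Next by p stood col-124, at 56.5 and 44.7 CPM in L4440 and 64.1, 68.4 and 65 CPM under the lin-32 label (0.39 ± 0.085 SE, edgeR adjusted p = 0.061). DESeq2 called col-124 (adjusted p = 0.0019) and limma-voom did not. The largest log2 fold change in this class was that of col-42, at 0.42 ± 0.13 (SE, edgeR adjusted p = 0.181). Of the 2 members highest per kb of exon, col-181 measured 659 and 601 CPM in L4440 and 686, 690 and 779 under the lin-32 label (0.19 ± 0.058 SE, edgeR adjusted p = 0.186), and col-106 had 0.18 ± 0.056 (SE, edgeR adjusted p = 0.200).

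By level class, 27 of the 29 members of at least 5 CPM had a log2 fold change above 0 under the lin-32 label, where 51.4% of all tested genes of that level did. Their median was 0.16 against 0.0030. In 10 of the 29 the libraries labelled lin-32 RNAi lay wholly above L4440 and in 0 wholly below, where 14.4% of all genes and 1358 of the 8573 tested genes of that level lay above. The exceptions below 0 were col-80 at -0.05 and col-43 at -0.02, and both turned positive without L4440 replicate 1. The count of 27 became 29 without L4440 replicate 1 and 18 without L4440 replicate 2. Of the 57 members under 5 CPM, 20 were above 0, where 49.2% of all tested genes of that level were, with a median of -0.28 against -0.0060. In 20 of the 57 the libraries labelled lin-32 RNAi lay wholly below L4440, where 15.4% of all genes and 883 of the 5699 tested genes of that level did, and in 3 wholly above, where 703 of the 5699 did. Among the 20 were col-17, col-90 and col-77, which met the minimum for members only through the other groups.

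**Figure D3:**
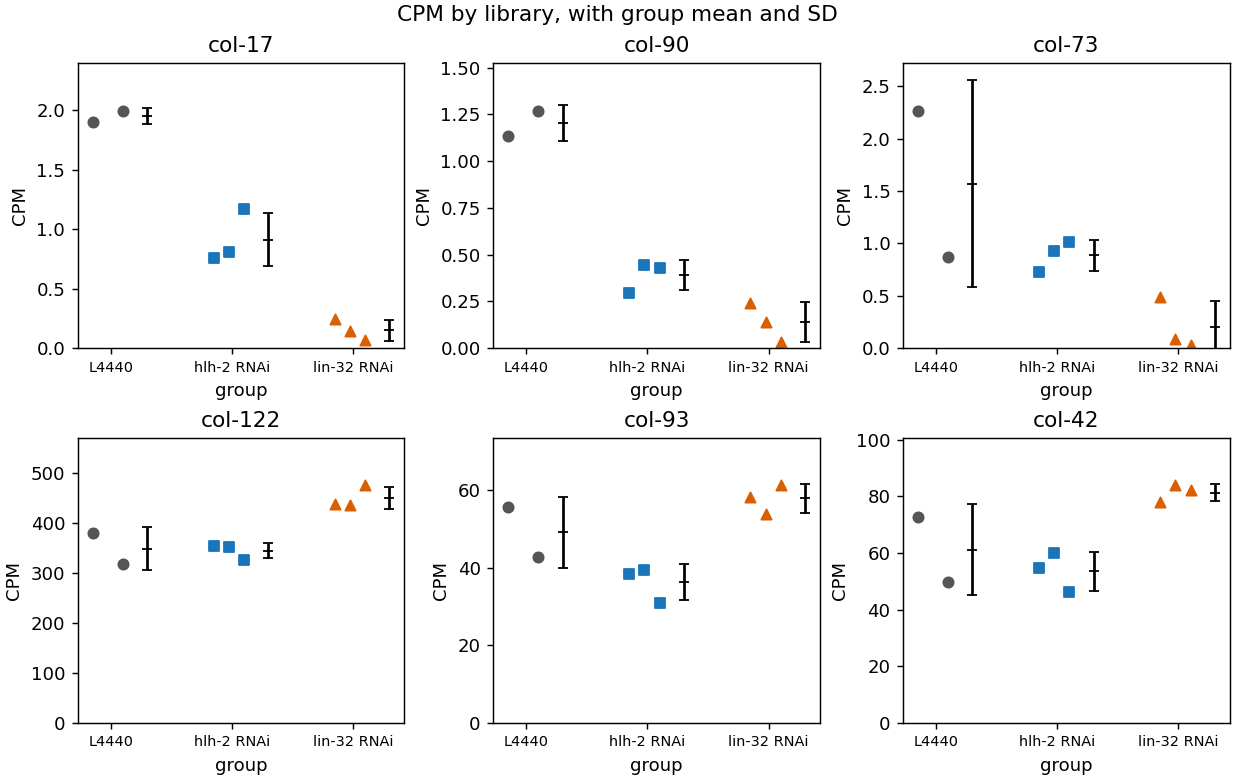
CPM of 6 members in each library (symbols), with the group mean and SD beside them (black, cut at 0); 2 libraries of L4440 and 3 of each RNAi label. In the upper row col-17, col-90 and col-73 are lowest under the lin-32 label, and in the lower row col-122 and col-42 are highest there, while L4440 replicate 1 of col-93, at 55.7 CPM, lies among the libraries labelled lin-32 RNAi.

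Against L4440, the libraries labelled hlh-2 RNAi had 0 of 86 members past the edgeR test, where 29 of 14272 genes passed (0.203%), 7 of them higher (0.049%) and 22 lower (0.154%). An unadjusted p under 0.05 was reached by 7 members, 1 higher and 6 lower (over all genes 3.14% and 3.64%), or 8.14% against 6.78% of all genes tested, a share near the background. DESeq2 called 1 member, col-80 (adjusted p = 0.0466), and limma-voom called 0. The 6 lower members were col-90 and col-17, given above, with col-93, col-80, col-92 and col-94. The transcript of col-80 measured 190 and 162 CPM in L4440 and 144, 157 and 134 CPM under the hlh-2 label, without overlap (-0.27 ± 0.076 SE, edgeR adjusted p = 0.430). That of col-93 measured 55.7 and 42.7 CPM in L4440 and 38.4, 39.5 and 30.9 CPM, also without overlap (-0.43 ± 0.11 SE, edgeR adjusted p = 0.331). The 1 higher member was col-124, at 53.5, 62.4 and 58.1 CPM against 56.5 and 44.7 CPM, where the groups overlapped (0.20 ± 0.085 SE).

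The remaining named members of this comparison were col-159, col-76 and col-142. For col-159 the log2 fold change was -0.30 ± 0.20 (SE), and it lay between -0.51 and -0.074 when each library was left out in turn. The transcripts of col-76 and col-142 had the next highest values after col-124, at 0.08 ± 0.10 and 0.07 ± 0.10 (SE). Of all 86 log2 fold changes 20 were above 0, or 23.3% against 49.7% of all genes tested, with a median of -0.12 against -6.8e-04. That balance depended on L4440 replicate 1. In the class of at least 5 CPM, 5 of 29 were above 0, but 15 of 29 without L4440 replicate 1. In the class under 5 CPM, 15 of 57 were above 0, but 32 of 57 without that library. The libraries labelled hlh-2 RNAi lay wholly below L4440 for 11 members, or 12.8% against 12.2% of all genes, and wholly above for 1, or 1.16% against 11.9%.

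The libraries of the 2 RNAi labels were also set against each other, where both targeted transcripts were higher under the hlh-2 label. The L4440 values are not part of the difference in this comparison. They do enter the choice of members, the gene filter, the scaling, the level classes and the shared estimate of spread. In it 4 of 86 members passed the test, a share of 4.65%, where 58 of 14272 genes passed, a share of 0.406%. The only member higher under the hlh-2 label was col-17, where 42 genes were higher in all (0.294%). Lower under that label were col-93, col-122 and col-42, where 16 genes were lower in all (0.112%). At an unadjusted p under 0.05 there were 36 members, 12 higher and 24 lower (over all genes 4.31% and 3.66%), or 41.9% against 7.97% of all genes tested. Of the 86 log2 differences 34 were above 0, or 39.5% against 49.3% of all genes.

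The gene col-93 (WBGene00000668, chromosome III, 10984552 to 10985609, minus strand, 304 residues) lies within dhc-4, a gene on the opposite strand, without sharing exon bases. It measured 38.4, 39.5 and 30.9 CPM under the hlh-2 label and 58.4, 54 and 61.3 CPM under the lin-32 label. The groups were well apart, at 36.3 ± 4.66 and 57.9 ± 3.69 CPM (SD, n = 3 each), a log2 difference of -0.67 ± 0.099 (SE, edgeR adjusted p = 0.0101). This call held under all 18 alternatives, with an adjusted p of at most 0.0445. The transcript of col-122 measured 354, 351 and 326 CPM under the hlh-2 label against 437, 435 and 475 CPM (-0.39 ± 0.059 SE, edgeR adjusted p = 0.0127). It lost its call without replicate 2 or 3 of the hlh-2 label (edgeR adjusted p = 0.0599 and 0.0617) or replicate 3 of the lin-32 label (0.0546). The gene col-42 (WBGene00013489, chromosome V, 18638484 to 18639591, plus strand, 338 residues) measured 54.6, 59.9 and 46.2 CPM against 77.9, 83.9 and 82.2 CPM (-0.60 ± 0.11 SE, edgeR adjusted p = 0.0384). Its call was lost with DESeq2 (adjusted p = 0.0595), with a filter of 1 CPM (0.0692), and without any 1 of replicates 2 and 3 of the hlh-2 label or the 3 replicates of the lin-32 label (0.0599 to 0.187).

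Further abundant members lay in the same direction and did not pass in the edgeR fit without the block. For col-92 the libraries measured 10.9, 12.5 and 10.3 CPM under the hlh-2 label and 16.5, 15.3 and 16.1 CPM under the lin-32 label (-0.51 ± 0.10 SE, edgeR adjusted p = 0.068). For col-95 they measured 493, 493 and 361 CPM against 668, 612 and 641 CPM (-0.51 ± 0.11 SE, edgeR adjusted p = 0.096). In both, the 2 labels did not overlap. The log2 difference was -0.42 ± 0.088 for col-103, -0.42 ± 0.093 for col-94 and -0.45 ± 0.10 for col-98 (SE), again without overlap, with edgeR adjusted p-values of 0.080, 0.097 and 0.116. DESeq2 called col-92, col-94 and col-103 (adjusted p = 0.0038, 0.0116 and 0.0018) but not col-95 or col-98, and limma-voom called none of these. At the other end of this class were col-76 at 0.04 ± 0.088, col-119 at -0.07 ± 0.047 and col-178 at -0.11 ± 0.052 (SE).

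Of the 29 members of at least 5 CPM, 28 were lower under the hlh-2 label than under the lin-32 label and 1 was higher, where 47.3% of all tested genes of that level were higher. Their median log2 difference was -0.20 against -0.0040. Leaving out any 1 library left between 0 and 2 of the 29 above 0. In 15 of the 29 the 3 libraries labelled hlh-2 RNAi lay wholly below the 3 labelled lin-32 RNAi, or 51.7% against 6.87% of all genes and 671 of the 8573 tested genes of that level, and in 0 wholly above. Under 5 CPM the members were on both sides, with 33 of 57 above 0 and a median of 0.037, and in 9 of the 57 the libraries labelled hlh-2 RNAi lay wholly above, or 15.8% against 6.81% of all genes and 479 of the 5699 tested genes of that level. In 4 of the 57 they lay wholly below, or 7.02% against 6.87% of all genes and 309 of the 5699. Among the 9 were col-17 and col-90, which met the minimum for members only through libraries outside the lin-32 label.

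Libraries of these 2 labels that carried the same replicate number deviated together over all genes, so the numbers were taken to pair them. In the 3 pairs the library labelled lin-32 RNAi was the higher one for 27, 25 and 28 of the 29 members of at least 5 CPM, where 51.9%, 52.7% and 53.1% of all tested genes of that level were. It was higher in all 3 pairs for 23 of the 29. The share of all genes higher in all 3 pairs was not computed, and members moved together, so this count is only a description. Over the members alone these same-number deviations correlated at 0.149, 0.462 and 0.169, and those of different number between the 2 labels at -0.333 to 0.070. Pairs of different number that included an L4440 library reached 0.372 and 0.455 over the members. The members alone therefore do not single out equal numbers. With the replicate number as a block and only these 6 libraries in the fit, 26 members passed instead of 4, of which 18 were of at least 5 CPM, where 386 genes passed in all (2.79%). This fit was chosen after seeing the data, and its pairing comes from these same counts and from no label. Of the 26, 7 were higher and 19 lower under the hlh-2 label. All of col-92, col-94, col-95, col-98 and col-103 were among the lower ones, with edgeR adjusted p-values of 2.5e-04, 4.6e-04, 2.2e-05, 3.1e-05 and 7.9e-05. Among the higher ones were col-73 (2.20 ± 0.45 SE, edgeR adjusted p = 0.0063), col-41 (1.64 ± 0.40 SE, edgeR adjusted p = 0.0238) and col-74 (0.997 ± 0.14 SE, edgeR adjusted p = 1.3e-04). With the block and all 8 libraries, 9 members passed, 1 higher and 8 lower, where 0.925% of all genes passed.

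**Figure D4:**
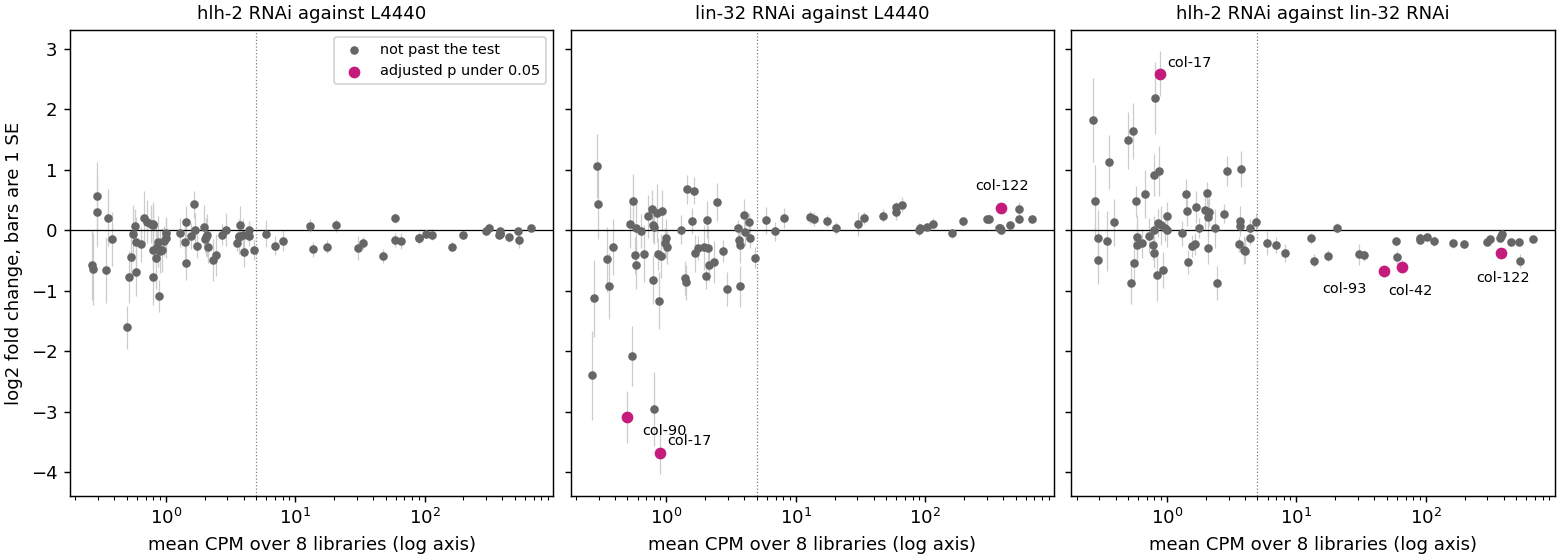
Log2 fold change (bars are 1 SE) of the 86 members against their mean CPM (log axis) in the 3 comparisons, with members past an edgeR adjusted p of 0.05 in colour and named, and a dotted line at 5 CPM. To the right of the line 27 of 29 points lie above 0 in the middle panel and 28 of 29 below 0 in the right panel; the left panel has no coloured point.

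Many members lie side by side in the genome. With a gap of at most 10000 bases, 31 of the 86 formed 13 runs of neighbouring members, the longest being col-167, col-168, col-169 and col-170 on chromosome X. The run on chromosome II that holds col-17 and col-73 also holds col-20 (4869670 to 4870791, minus strand) between them, on the same strand. Unlike its neighbours, col-20 was abundant, at 124 and 104 CPM in L4440, 95.3, 117 and 112 under the hlh-2 label and 116, 115 and 137 under the lin-32 label. It passed no test, and its log2 fold change under the lin-32 label was 0.11 ± 0.096 (SE), beside -3.68 and -2.96 for the genes on either side. The run of col-92, col-93 and col-94 on chromosome III lies within dhc-4, and its genes each encode 304 residues. All 3 were lower under the hlh-2 label than under the lin-32 label, by log2 differences of -0.51, -0.67 and -0.42, and only col-93 passed in the edgeR fit without the block. Proteins of equal length from adjacent genes can be close copies, and how the authors' counting treated reads that match several genes is not stated by any source used here, so the separate values of these 3 are uncertain. The same limit holds for other runs of equal length, such as col-10, col-144 and col-145 with 294 residues each and col-178 and col-179 with 283 each.

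**Figure D5:**
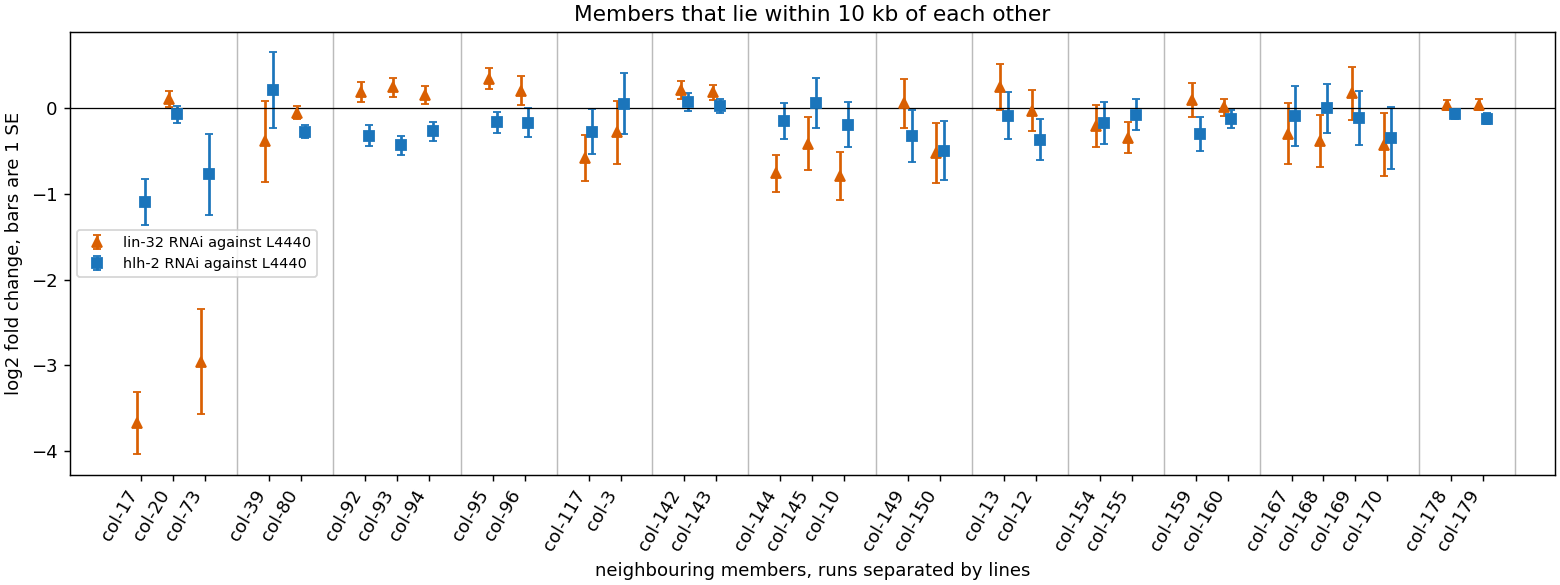
Log2 fold change against L4440 (bars are 1 SE) for the 31 members in 13 runs of neighbours at most 10000 bases apart, with runs separated by lines; triangles are the lin-32 label and squares the hlh-2 label, and both use the same 2 control libraries. In the run at the left col-17 and col-73 stand at -3.68 and -2.96 under the lin-32 label while col-20 between them stands at 0.11.

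Cuticle collagens with names from their mutant shapes were set beside the numbered ones. Of the 20 dpy, sqt, rol, lon and bli genes listed, 18 were tested. Under the lin-32 label 8 were lower than in L4440, where 0.533% of all genes tested were lower, and 0 were higher. Of the 18 log2 fold changes 0 were above 0, where 50.6% of all genes tested were, with a median of -1.22 against 0.0015. Of the 8, sqt-1, rol-6, dpy-5, dpy-13, rol-8 and sqt-2 had means of at most 0.151 CPM under the lin-32 label. They passed the gene filter through the other groups, so this comparison is not independent of how they were kept. The count of 8 became 1 without either L4440 library, 2 without replicate 2 or 3 of the lin-32 label and 5 without its replicate 1. The lowest was sqt-1, a collagen of body shape, at -4.55 ± 0.52 (SE, edgeR adjusted p = 0.0014), in the size range of col-17, and rol-6 and dpy-5 stood at -3.75 each. The 8 that passed had means of at most 1.33 CPM in L4440, where col-17 and col-90 stood at 1.95 and 1.2 CPM. The abundant ones of this list had smaller values that did not pass, such as sqt-3 at -0.02, dpy-14 at -0.14 and dpy-17 at -0.19. Under the hlh-2 label 0 of 18 passed, with a median of -0.43.

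Genes that process collagen and genes of the moult had no call. The 12 listed enzymes that modify and cross-link collagen, among them the prolyl hydroxylase gene dpy-18 and the dual oxidase gene bli-3, had 0 calls and medians of -0.0050 and -0.017 for the hlh-2 and lin-32 labels against L4440. The 14 listed moulting genes had 0 calls. Their medians were -0.020 and -0.11, and under the lin-32 label 0 of the 14 were above 0, where 50.6% of all genes tested were. The 5 basement membrane and other collagens, of which col-99 is 1, had 0 calls.

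Markers of the cells that make the cuticle were read beside the collagens. The 8 listed epidermal genes were all detected, had 0 calls in each comparison, and summed to 296 to 302 CPM in L4440, 295 to 302 under the hlh-2 label and 292 to 301 under the lin-32 label. Of that sum lin-26 alone gave means of 141, 138 and 138 CPM. Single log2 fold changes against L4440 ran from -0.090 to 0.21 for the hlh-2 label and from -0.14 to 0.25 for the lin-32 label, highest for elt-3 in both. Muscle markers summed to 700 to 715, 678 to 722 and 693 to 730 CPM in the 3 groups, and neuron markers to 205 to 211, 209 to 217 and 211 to 220 CPM. The intestinal markers summed to 230 to 245, 243 to 257 and 238 to 272 CPM, and the pharynx markers to 58.7 to 64.3, 54.7 to 58.4 and 54.9 to 58.7 CPM. The 6 yolk genes, made in the adult intestine, summed to 65642 to 66791, 61834 to 63083 and 59451 to 65089 CPM, and the 6 oocyte and germ line genes to 6582 to 6754, 6444 to 6487 and 6081 to 6564 CPM. Both were lower in every library of the RNAi labels than in L4440. The 4 sperm genes summed to 0.908 to 1.72, 1.15 to 1.43 and 0.876 to 0.963 CPM. Of all these markers 1 was called, the muscle myosin gene myo-3, which was higher under the hlh-2 label than under the lin-32 label (0.24 ± 0.043 SE, edgeR adjusted p = 0.0309), and none was at 0 in all libraries. The part of the yolk and germ line values in the collagen values was not tested.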

How the data were processed

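RNA from whole N2 nematodes was sequenced in 8 libraries made with the TruSeq RNA v2 kit, per the labels' protocols. The deposited table holds raw read counts per WormBase gene. Per the submitters' processing notes the build was WBcel235 and the tools named are featureCounts 1.4.6-p4, TopHat2 2.1.0 and bcl2fastq 1.8.4. No source used here gives the annotation release or the settings for strand and multi-mapping reads, which decide where reads of near-identical collagens went.

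WormBase names gave a symbol to 43693 of the 46748 IDs, and the annotation of WBcel235 placed 46449. The filter was edgeR's filterByExpr by group (edgeR 4.0.16, R 4.3.3), which kept 14272 genes and all 86 members. Counts were scaled by TMM and fitted, all 8 libraries together, in 1 quasi-likelihood model (glmQLFit, glmQLFTest) with the group as its term. Benjamini-Hochberg adjustment ran over all genes tested, and the threshold was 0.05. Standard errors came from the F statistic. CPM uses TMM-scaled library sizes, and log2 CPM for the spread has a prior count of 2. A group lies wholly above or below another where no CPM values overlap. Alternatives were DESeq2 1.42.0, limma-voom (limma 3.58.1), other scalings and filters, fits of only the groups compared, a replicate block, and leaving out each library. The fit was also run on simulated counts drawn independently for each gene and library. These lack the deviations that members shared within a library, so that run cannot show how such deviations affect the p-values.

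Between replicates of a group the chi-square divided by its degrees of freedom was 6.03 to 17.6, above counting noise. Deviations of same-numbered libraries correlated at 0.265, 0.194 and 0.191 between the hlh-2 and lin-32 labels, all over 0.1, so these numbers were taken to pair them. Libraries of these labels with different numbers gave -0.190 to 0.011. A value over 0.1 was not limited to equal numbers. L4440 replicate 1 reached 0.165 with replicate 2 of the hlh-2 label and 0.122 with replicate 2 of the lin-32 label. The data alone give this pairing; no label names a shared day or batch.

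Members, lists, level classes and the rule for naming genes were chosen with earlier results of these data known. Named were members past the threshold, the 6 smallest p and 3 largest changes each way at 5 CPM or more in a comparison, the 10 highest levels, the 5 widest spreads and members with a known role. Others are said to have been chosen after their values were seen, or stand in the account of runs, of level order or of the blocked fit.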

Additional observations from a re-analysis of the deposited data

How the results depend on the processing

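Among the named members, col-17 under the lin-32 label against L4440 and col-93 between the 2 RNAi labels passed in all 18 alternatives. With no filter on low counts, 7 members passed for the hlh-2 label against L4440, 21 for the lin-32 label against L4440 and 27 between the labels, and 223, 610 and 342 of 23063 genes. DESeq2 called 1, 4 and 9 members and 49, 177 and 91 genes. A filter of 1 CPM gave 64 genes for the lin-32 label against L4440, and of the 31 members it left under 5 CPM, 6, 10 and 19 were above 0. Scaling by library size alone put 8 of the 29 members of at least 5 CPM above 0 for the hlh-2 label. With a replicate block and all 8 libraries, 7 members passed for the lin-32 label against L4440 and 9 between the labels, and 72, 350 and 132 genes. With the replicate block and only the 2 groups compared, chosen after seeing the data, the members were 8 and 26 and the genes 80, 255 and 386. The block added no member for the hlh-2 label against L4440. L4440 libraries did not deviate with their numbers (same-number correlations from -0.165 to -0.037), so for comparisons with L4440 the number is no pairing. With no minimum there were 156 col genes.

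Leaving out each library in turn gave 0 to 0, 1 to 5 and 2 to 6 members called, and 3 to 31, 17 to 157 and 25 to 93 genes, for the hlh-2 label against L4440, the lin-32 label against L4440 and the labels against each other. Members of at least 5 CPM above 0 were 4 to 15, 18 to 29 and 0 to 2, and those under 5 CPM 7 to 32, 16 to 26 and 31 to 34. Counting members above 0 under the alternatives was added after seeing the data. Members called fell to 1 without L4440 replicate 2 for the lin-32 label against L4440, and rose to 5 without L4440 replicate 1 or replicate 1 of the hlh-2 label. Between the labels 2 were called without replicate 2 or 3 of either label.

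Signs turned for 4 named members, all with values near 0, whose ranges on leaving out libraries reached -0.164 (col-80), -0.136 (col-43), 0.050 (col-119) and 0.115 (col-76). Under the lin-32 label against L4440 col-43 became 0.068 with the block and 8 libraries and 0.036 with the block and 2 groups, 0.065 without L4440 replicate 1, and 0.036 and 0.041 without replicates 2 and 3 of the lin-32 label. There col-119 became -0.034 and -0.040 with the block, -0.016 without L4440 replicate 2 and -0.040 without replicate 3 of the lin-32 label, and col-80 became 0.060 without L4440 replicate 1 and 6.9e-04 without replicate 2 of the lin-32 label. Between the labels col-76 became -0.037 without replicate 3 of the hlh-2 label and -0.043 without replicate 1 of the lin-32 label. The causes were not tested. At 22.1 counts per CPM in the smallest library, differences of members under 1 CPM are limited by depth.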
